A study of Saccharomyces cerevisiae with 2 samples.

Results

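The genes described here are 45 ribosome biogenesis genes of Saccharomyces cerevisiae, of 5899 reading frames in all that could be placed on the array. They were chosen by name, as a list of UTP, NOP, RRP, NOC and related genes, and their probes are those that the array files list at each gene, within the frame or in the 500 bp upstream of the start codon. Ribosome biogenesis is the making of the 2 ribosomal subunits in the nucleolus, where several RNA polymerases, small nucleolar RNAs and a large set of assembly factors take part. The small-subunit processome forms on the new ribosomal RNA precursor around the U3 small nucleolar RNA, and other factors fold and cut the part of the precursor that becomes the large subunit. In budding yeast the genes for these factors are known to be regulated together with growth, and most encode proteins that cells need to live.

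The measurement was a ratio of 2 forms of histone H3, the core of the nucleosome. The cells were of strain MDY513, in which HTZ1, the gene of the histone variant H2A.Z, is deleted. They carried an H3 with a Myc tag that is always made and an H3 with a Flag tag that is made once galactose is present. Alpha factor, the mating pheromone that halts cells in G1, was given at 4 µg/mL for 4 h, and the cells were then filtered and moved to YP medium with 2% galactose. At 180 min the anti-Flag and the anti-Myc precipitate of the same cells, amplified linearly through RNA, were hybridised to one 2-colour tiling array (Flag in Cy3, Myc in Cy5, per the labels). This was the only group, with 2 replicate arrays. No strain with HTZ1, no other time and no dye swap was analysed here, so the values below compare regions of 1 genome in 1 condition. Nothing in the labels tells whether the 2 replicates were separate cultures, so the spread between the 2 arrays may be technical. The p-values of frames and of differences within a gene measure that spread, shrunk towards the spread over all regions. Those of promoters (the 500 bp upstream) use 1 spread common to all promoters. No p-value takes in the scatter between the probes of a region.

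Every value is the log2 ratio of Flag to Myc, with the median of the array set to 0 and the used probes of a region averaged. A positive value marks DNA with a larger part of recently made H3 than the median probe had, and 0 is not an equal amount of both. The arrays correlated at Pearson r = 0.97 over 34899 nuclear probes, and the only probe in the HTZ1 frame was dim (not well above background) on both arrays, in the Flag and in the Myc channel. All 45 genes had a frame value, from 2 to 19 used probes (median 5), and 4 of these values rested on 2 probes. For the 45 frames the median SD between the arrays was 0.09, against an SD of 0.82 across the genes. The number of arrays limits the precision of every value.

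The reading frames of the ribosome biogenesis genes held less of the recent H3 than most frames did. Their median was -0.52 ± 0.11, against -0.055 ± 0.02 for all 5576 frames measured (SD of the per-array medians, n = 2 arrays). The gap to all frames was -0.47, and it shrank to -0.26 under normexp background correction and to -0.28 over probes at least 250 bp inside both frame ends, a setting chosen after seeing the data. Of the 45 frames, 29 were lower than the array median, 9 were higher and 7 did not pass (limma, Benjamini-Hochberg adjusted over all frames, two-sided at 0.05). Over all frames the same test called 42.8% lower and 39.1% higher. These comparisons are not matched for frame length. The members were longer (median 1542 bp, against 1230 bp), and long frames were low throughout the genome. Values by range of length are given below. On both arrays 33 member frames lay below the array median and 9 lay above it. The list is not uniform, since its frames ran from -1.46 to 2.03.

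**Figure D1:**
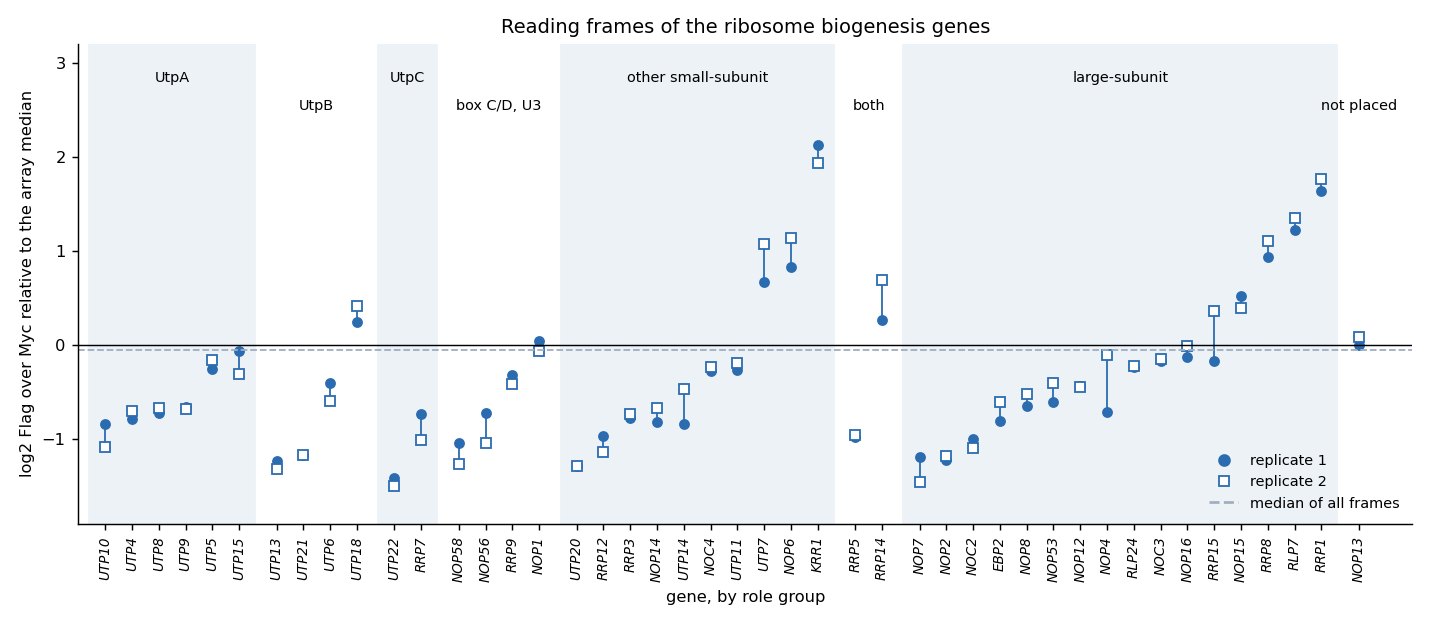
The vertical axis is the log2 ratio of Flag to Myc, with the array median at 0, for the frame of each of the 45 genes, with replicate 1 as a filled circle and replicate 2 as an open square, grouped by role on the horizontal axis; the dashed line is the median of all frames. The UtpA, UtpC and box C/D groups lie at or below 0 apart from the near-0 value of NOP1, while KRR1 (2.03) and RRP1 (1.70) are the 2 highest of the 45 frames.

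The genes of the 3 core subcomplexes of the processome were mostly low. UtpA is the subcomplex that binds the start of the precursor first, and of its 6 genes among the 45, 4 were lower, with a median of -0.68 ± 0.01. Among all frames 42.8% were lower and 39.1% higher. UTP10, a very long scaffold protein, had -0.84 and -1.09 on the 2 arrays and was the lowest of these 6 (limma adjusted p = 1e-04). UTP15 was the highest of the 6, at -0.06 and -0.31, and did not pass (limma adjusted p = 0.12). UTP5 (-0.21 ± 0.07) did not pass either, and UTP4 (-0.75 ± 0.06), UTP8 (-0.69 ± 0.04) and UTP9 (-0.67 ± 0.01) were lower. None of the 6 frames was above 0 on either array.

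UtpB holds several WD-repeat proteins. UTP13 had -1.24 and -1.32 in its frame on chromosome 12 (579321 to 581774), 2.43-fold below the array median (limma adjusted p = 1.7e-05). UTP21 (-1.17 ± 0.00) and UTP6 (-0.50 ± 0.14) were lower as well. UTP18 was the only one of the 4 UtpB genes among the 45 to lie above the array median, at 0.24 and 0.41 (limma adjusted p = 0.014). The call was lost when dim probes were kept across the arrays, though all 6 frame probes of UTP18 were already used. Its probes differed widely along the gene, and the 4 probes at least 250 bp inside both ends averaged -0.32.

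UtpC, a further module of the processome, is represented by UTP22 and RRP7. UTP22 was the lowest of all 45 frames (chromosome 7, 662363 to 666076), with -1.42 and -1.50 over 11 probes, which is 2.75-fold below the array median (limma adjusted p = 9.9e-06). RRP7 had -0.74 and -1.01 (limma adjusted p = 0.00019). As 1 set, the UtpA, UtpB and UtpC genes among the 45 had 9 of 12 frames lower and 1 higher, with a median of -0.71 ± 0.03. The shares over all frames were 42.8% lower and 39.1% higher. Long frames were called lower more often. The share was 52.4% of all frames of 1500 to 2000 bp, 68.4% of 2000 to 3000 bp and 85.4% above 3000 bp. These 12 frames ran from 894 bp (RRP7) to 5310 bp (UTP10) and were not matched for length.

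The box C/D proteins sit on the small nucleolar RNAs that guide methylation of ribosomal RNA, and RRP9 encodes a protein specific to U3. NOP58 had -1.05 and -1.27 and NOP56, its partner in the same particles, -0.72 and -1.05. Both were lower (limma adjusted p = 4e-05 for NOP58 and 0.00023 for NOP56), as was RRP9 (-0.37 ± 0.07), whose call was lost under loess or with outlier flags kept. NOP1, the methyltransferase of these particles (fibrillarin in animals), had 0.05 and -0.06, which is the array median within the spread between arrays.

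Of the 10 other small-subunit factors, 7 were lower and 3 were higher, where 42.8% of all frames were lower and 39.1% higher. UTP20, whose protein is a long scaffold of helical repeats, had -1.28 on both arrays over 19 probes (chromosome 2, 227640 to 235121; limma adjusted p = 1.6e-05). KRR1, a KH-domain RNA-binding protein of the processome, was the highest of the 45 frames (chromosome 3, 22430 to 23380), at 2.12 and 1.94 over 3 used probes, 4.09-fold above the array median (limma adjusted p = 2.9e-06). Its probe at 827 bp was left out by the probe filters and had -0.34 and -0.10, so this value and rank rest on the used probes. UTP7 had 0.67 and 1.07, and NOP6 had 0.82 and 1.13 (limma adjusted p = 0.00039 and 0.00013). These 3 genes were above the array median on both arrays, and the other 7 were below it on both. RRP12, a factor of subunit export, stood at -1.05 ± 0.12, the helicase gene RRP3 at -0.76 ± 0.03, NOP14 at -0.75 ± 0.11 and UTP14 at -0.66 ± 0.26. NOC4, whose protein pairs with Nop14, was closer to 0 at -0.26 ± 0.03, and UTP11 had -0.23 ± 0.05 over 2 probes, a direction that turned (0.023) when the arrays were normalised by loess. Its call was also lost with medians over probes and with weights by number of probes.

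The large-subunit factors ran in both directions, more of them low. Of 16 frames, 9 were lower (56.25%), 4 were higher (25%) and 3 did not pass, with a median of -0.26 ± 0.11. Over all frames 42.8% were lower and 39.1% higher, with a median of -0.055. The 26 genes of the small-subunit side (the processome groups, box C/D and the other small-subunit factors) had a median of -0.70 ± 0.04, with 19 lower and 4 higher. The sides were not matched for frame length, with which the members' values fell (Spearman rho of -0.69). Small-subunit frames ran from 678 bp (NOP6) to 7482 bp (UTP20), and large-subunit frames from 600 bp (RLP24) to 2133 bp (NOC2). No test of the difference between the 2 sides was made, and whether it holds among frames of like length was not tested.

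NOP7, which encodes the yeast form of Pescadillo, was the lowest large-subunit gene (chromosome 7, 695422 to 697239), with -1.19 and -1.45 (limma adjusted p = 2.6e-05). This value and rank rest on 4 used probes of 6. NOP2, a methyltransferase of the large ribosomal RNA, had -1.22 and -1.19 (limma adjusted p = 2.1e-05). NOC2 had -1.05 ± 0.07 and EBP2 -0.70 ± 0.15. The replicates of these genes stayed on the same side of 0. The remaining low frames were nearer to it, from NOP8 at -0.59 ± 0.09 and NOP53 at -0.50 ± 0.14 to NOP12 at -0.44 ± 0.00 and NOP4 at -0.41 ± 0.43, where replicate 2 alone had -0.11. RLP24, a relative of a ribosomal protein that takes its place during assembly, had -0.23 ± 0.01 over 2 probes, which became 0.0046 under loess and lost its call with medians over probes or weights by number of probes. The call was lost for NOP12 under normexp or with outlier flags kept, and for NOP4 under loess or scaling, with the direction kept.

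RRP1 was the highest large-subunit frame and the second of all 45 (chromosome 4, 617466 to 618302), with 1.63 and 1.76 over 3 probes, 3.24-fold above the array median (limma adjusted p = 5.7e-06). RLP7, another protein that resembles a ribosomal protein, had 1.22 and 1.35 (limma adjusted p = 1.9e-05). RRP8, a methyltransferase of the large ribosomal RNA, had 0.94 and 1.11 (limma adjusted p = 5.6e-05). These 3 were well apart from the group's median on both arrays. NOP15 was higher with 0.52 and 0.39 over 2 probes (limma adjusted p = 0.0028), and its interior probe had 0.11. The frames of NOC3 (-0.16 ± 0.01), NOP16 (-0.07 ± 0.08) and RRP15 (0.10 ± 0.38) did not pass.

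Factors used by both subunits went in opposite directions. RRP5, whose protein binds the precursor across the part that separates the subunits, had -0.98 and -0.96 (limma adjusted p = 5.4e-05). RRP14 had 0.26 and 0.69 (limma adjusted p = 0.0085), but its interior probes averaged 0.12 and its call was lost there. NOP13, a nucleolar RNA-binding protein placed in no group, had 0.00 and 0.09 and did not pass, while its probes away from the frame's ends gave -0.38.

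Frame length moved with these values. The member frames had a median length of 1542 bp, against 1230 bp for all frames, and long frames were low throughout the genome (Spearman rho between frame value and length of -0.69 over the 45 members and -0.50 over all 5576 frames, as descriptions across genes of the same 2 arrays). Among frames of 500 to 1000 bp the 11 members had a median of 0.20 ± 0.22, against 0.37 ± 0.03 for all 1473 frames. From 1000 to 1500 bp it was -0.42 ± 0.00 for 8 members, against -0.05 ± 0.01. From 1500 to 2000 bp it was -0.37 ± 0.07 for 13 members, against -0.29 ± 0.02. The difference was thus small in that range and in the shortest one, within the spread between arrays in the shortest.

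From 2000 to 3000 bp the 8 members had -0.76 ± 0.10, against -0.56 ± 0.04 for all 794 frames, and above 3000 bp the 5 members had -1.06 ± 0.11, against -0.82 ± 0.02 for 465 frames. All 13 members longer than 2000 bp were called lower, in length ranges where 68.4% and 85.4% of all frames were. The members' median lay below that of all frames in each of the 5 length ranges that held members, and 30 of the 45 members lay below the median of their own range. The high frames KRR1, RRP1, RLP7, NOP6 and NOP15 are all under 1000 bp, RRP8 and RRP14 are under 1500 bp, and UTP7 and UTP18 are longer.

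**Figure D2:**
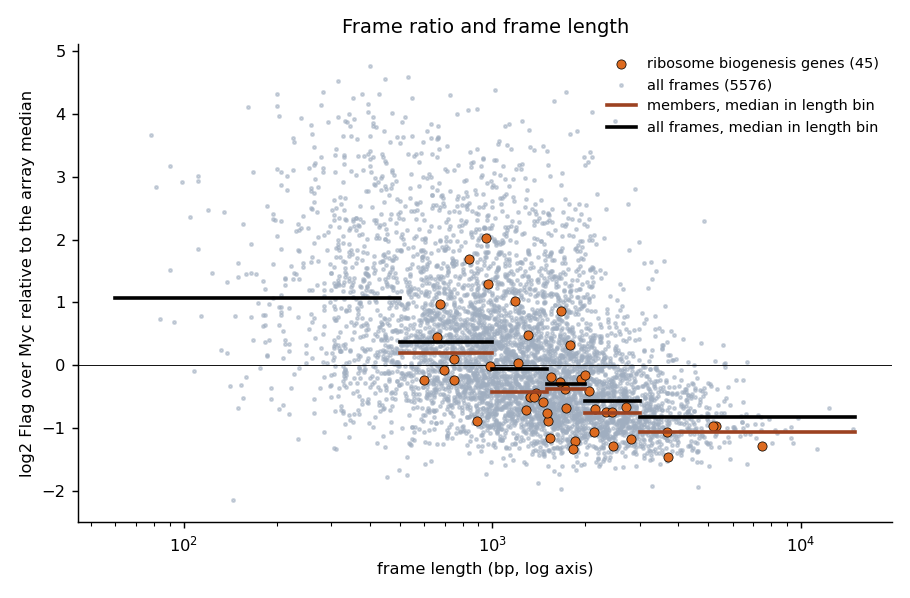
Each point is a frame, with its length in bp on a log axis and its log2 ratio of Flag to Myc with the array median at 0 (mean of 2 arrays) on the vertical axis; ribosome biogenesis genes are orange, all frames grey, and the bars are the medians in ranges of length. The members' bar lies below the bar of all frames in each of the 5 ranges that hold members, by the least from 1500 to 2000 bp.

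Along the gene, the ratio was lowest in the middle of the frame. With each frame cut into 3 equal parts, the members had medians of -0.14 ± 0.00 in the first part (44 genes), -1.02 ± 0.14 in the middle part (42 genes) and -0.45 ± 0.08 in the last part (41 genes). For all frames these were 0.16 ± 0.04, -0.50 ± 0.03 and -0.044 ± 0.00. The middle part was the lowest in 26 of 37 members with all 3 parts measured (70.3%) and in 2227 of 3859 frames in all (57.7%), and 21 members had a middle part under -1. These parts grow with frame length, and the members were longer than all frames. Ratios fell with distance from the frame ends in all genes, and the parts were not matched for that distance.

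The first part was higher than the middle part in 27 of 41 members and lower in 2 (limma adjusted p, over all frames), against 60.3% higher and 9.36% lower among all frames. UTP18 showed the largest step, with 1.77 in the first part and -1.19 in the middle (difference 2.96 ± 0.18; limma adjusted p = 2e-06). UTP14 (2.10 ± 0.32) and UTP8 (1.96 ± 0.04) followed. The 2 that ran the other way were UTP6, with -1.45 in the first part and -0.46 in the middle, and RRP1, with 0.61 in the first part and 1.49 in the middle. Of the other small-subunit factors, 9 of 10 were higher at the start.

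The last part was higher than the middle in 22 of 38 members and lower in 3, against 49.0% higher and 13.3% lower among all frames. UTP5 had the largest such difference, at 1.83 ± 0.04, with 0.79 in its last part and -1.04 in its middle part. The 3 lower ones were RRP14 (-0.87 ± 0.17), UTP15 (-0.67 ± 0.01) and NOP7 (-0.48 ± 0.39). The last part of NOP7 rests on a single used probe, at 1364 bp (-1.62 ± 0.05). The probe left out there, at 1691 bp, had -0.31 ± 0.66.

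Single probes show how different the shapes were. Going from the start codon, the used probes of KRR1 at 30, 182 and 555 bp had 2.77 ± 0.43, 2.56 ± 0.05 and 0.77 ± 0.08, so its high value came from the first part of the frame. Its last part had no used probe, and the probe left out there, at 827 bp, had -0.22 ± 0.17. RRP1 sloped the other way: its probes at 163, 362 and 767 bp had 0.61 ± 0.14, 1.49 ± 0.02 and 3.00 ± 0.15. The probe at 767 bp (chromosome 4, 617506 to 617565) was the highest of the 3 on both arrays, with 2.89 and 3.10. RLP7 also had its highest probe near the stop codon, at 1.73 ± 0.06, after 0.93 ± 0.27 and 1.19 ± 0.05. In NOP7 all 4 used probes were low, from -0.79 ± 0.28 to -1.62 ± 0.05, whereas its used promoter probe had 0.24 ± 0.46. The NOP7 frame probes left out lay nearest the ends, at 54 bp (0.15 ± 0.01) and 1691 bp (-0.31 ± 0.66). In UTP18 the probes at 100 and 359 bp had 1.96 ± 0.13 and 1.58 ± 0.11, those at 855 and 1153 bp had -1.20 ± 0.35 and -1.17 ± 0.24, and the last, at 1748 bp, had 1.26 ± 0.19. The mean over this frame therefore describes neither its ends nor its middle.

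**Figure D3:**
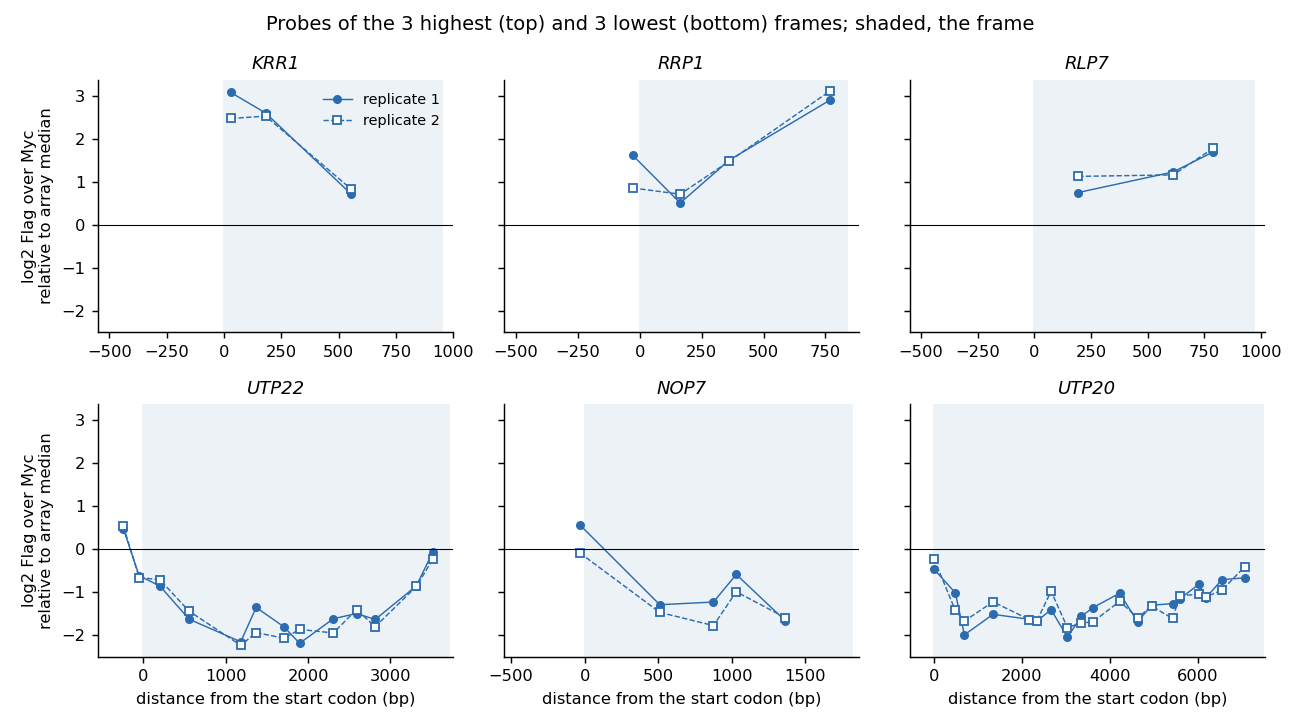
Used probes of the 3 highest frames (KRR1, RRP1, RLP7, upper row) and the 3 lowest (UTP22, NOP7, UTP20, lower row), with distance from the start codon in bp on the horizontal axis, log2 ratio of Flag to Myc with the array median at 0 on the vertical axis, each replicate drawn apart and the frame shaded. KRR1 falls along its frame while RRP1 and RLP7 climb towards the stop codon, and the low frames stay under 0 over most of their length.

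Averaged by distance from the start codon, the members were somewhat above all genes far upstream and below them within the first 1500 bp of the frame. From 500 to 250 bp upstream the members' probes had a median of 1.38 ± 0.06 and all probes 1.24 ± 0.04, higher for the members on both arrays. In the last 250 bp before the start codon the medians were 0.79 ± 0.28 for the members and 0.90 for all, a difference within the spread between arrays. In the first 250 bp of the frame they were 0.27 ± 0.04 and 0.52. From 500 to 750 bp into the frame the members had -0.91 ± 0.05, against -0.41 for all, and from 1250 to 1500 bp -1.12 ± 0.01, against -0.72. Farther in, few probes were left. From 1500 to 1750 bp the 14 member probes had -1.30 ± 0.02, against -0.73 for all. From 1750 to 2000 bp the 12 member probes had -1.38 ± 0.10, against -0.74. The 8 member probes from 2000 to 2250 bp were higher, at -0.64 ± 0.27, against -0.79 for all. The 6 from 2250 to 2500 bp had -1.55 ± 0.09, against -0.80. Distance to the nearer end of the frame gave the same order, with a median of 0.13 ± 0.11 for member probes within 250 bp of an end, against 0.39 ± 0.01 for all. For probes 500 to 1000 bp from both ends it was -1.11 ± 0.15 for the members (73 probes in 31 genes), against -0.81 ± 0.02.

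**Figure D4:**
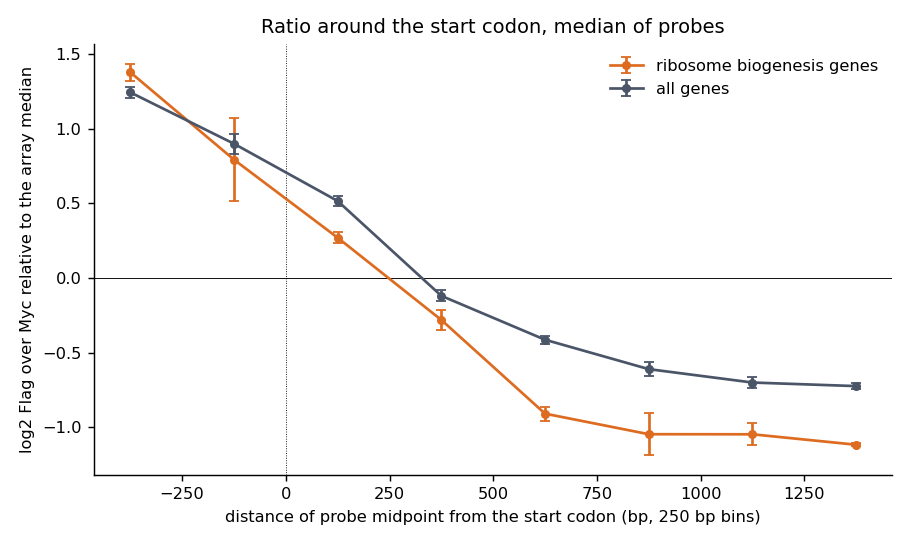
Median log2 ratio of Flag to Myc with the array median at 0 (vertical axis) of probes in 250 bp bins of distance from the start codon in bp (horizontal axis), for the ribosome biogenesis genes and for all genes; points are means of the 2 arrays' medians and bars their SD (n = 2). The lines cross upstream of the start codon, and in the 6 bins drawn within the frame, up to 1500 bp, the members lie below all genes, at -0.91 against -0.41 from 500 to 750 bp.

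Promoters were measured in fewer genes. Of 80 member promoter probes 28.8% were left out as dim, against 27.3% of all promoter probes and 3.82% of member frame probes. A value was left for 30 genes, of which 16 rested on 1 probe. KRR1 and RRP8 had no promoter probe, and the 13 others had promoter probes of which none was used. Probes between divergent genes belong to both neighbours, which concerned 12 of the 30.

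Member promoters were about as rich in recent H3 as other promoters. Their median was 1.02 ± 0.28, against 1.001 ± 0.08 for all 4536 promoters. Of the 30, 19 were higher than the array median, 3 were lower and 8 did not pass, against 76.0% higher and 6.9% lower among all promoters (limma adjusted p). The promoter fit gave every promoter the same spread, which makes its p-values very small. They therefore rank promoters by distance of the mean from 0, whatever the promoter's own spread between arrays.

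The highest promoters were spread over the role groups. UTP7 had 2.41 and 2.19 from 1 probe, 4.91-fold above the array median. RRP14 had 2.29 and 2.28, from DNA shared with TEF4, a gene for a translation elongation factor. NOC4 had 2.59 and 1.85, also from 1 used probe, and NOC3 had 2.38 and 1.87. UTP15 had 2.12 and 2.10, in DNA shared with AIP1, an actin regulator (limma adjusted p at or under 4.5e-35 for all 5). All were above the median of all promoters on both arrays, and the frames of NOC4, NOC3 and UTP15 lay near or below 0.

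The 3 lower promoters each rested on 1 probe between divergent genes. NOP2 had -0.54 and -0.85 (limma adjusted p = 5e-05), shared with GCD10, a gene for a tRNA methyltransferase subunit. UTP4 had -0.48 and -0.75 (limma adjusted p = 0.00034), shared with the condensin gene YCG1, and -0.09 without a call after another background correction. UTP11 had -0.09 and -0.61 (limma adjusted p = 0.044), shared with MTC2, and this value became 0.063 when dim probes were kept. The UTP11 call was lost in 4 alternatives in all, the others being the 250 bp window, weights by number of probes and a robust variance trend. RRP7 (0.00 and -0.54) and UTP13 (0.22 and -0.41) came next and did not pass. Of the 5 lowest frames, UTP22 (-0.07 ± 0.01), NOP7 (0.24 ± 0.46), UTP13 and NOP2 had a promoter value, and none of these was called higher. The values of NOP7, UTP13 and NOP2 rest on 1 used probe each. Promoter probes left out had higher means, at 0.98 ± 1.93 in UTP22, 0.99 ± 0.23 in NOP7 and 0.92 ± 1.32 in UTP13. UTP20 had no used promoter probe.

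Within a gene, the promoter was usually richer in recent H3 than the frame. The difference was higher in 25 of the 30 genes with both values, and in the same 25 on both arrays, against 69.4% higher and 10.5% lower among all 4388 genes. By limma's adjusted p no member was lower; at an unadjusted p under 0.05 there was 1, and other processing gave 1 or 2. The members' median difference was 1.31 ± 0.24, against 0.91 ± 0.10 for all genes.

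NOC4 had the largest difference, 2.87 and 2.08, or 5.57-fold (limma adjusted p = 1e-08). Its promoter value and this rank rest on 1 used probe of 2. The probe left out, 274 bp before the start codon, had 0.27 and 2.93. UTP15 had 2.18 and 2.41 (limma adjusted p = 6.4e-09), and NOC3 2.55 and 2.02 (limma adjusted p = 1.2e-08). In NOC4 the fall was steep: the used probe 34 bp before the start codon had 2.22 ± 0.52, the probe 187 bp into the frame 1.18 ± 0.10 and the probe at 1055 bp -0.99 ± 0.14. At the other end were RRP1, with -0.02 and -0.91, UTP11, with 0.18 and -0.42, and UTP4, with 0.31 and -0.04. None of these 3 passed (limma adjusted p = 0.051, 0.59 and 0.52), and NOP6 and NOP16 did not pass either. Across the 30 genes promoter and frame values correlated at r = 0.60, and at r = 0.52 over all genes with both, which describes genes of the same 2 arrays.

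**Figure D5:**
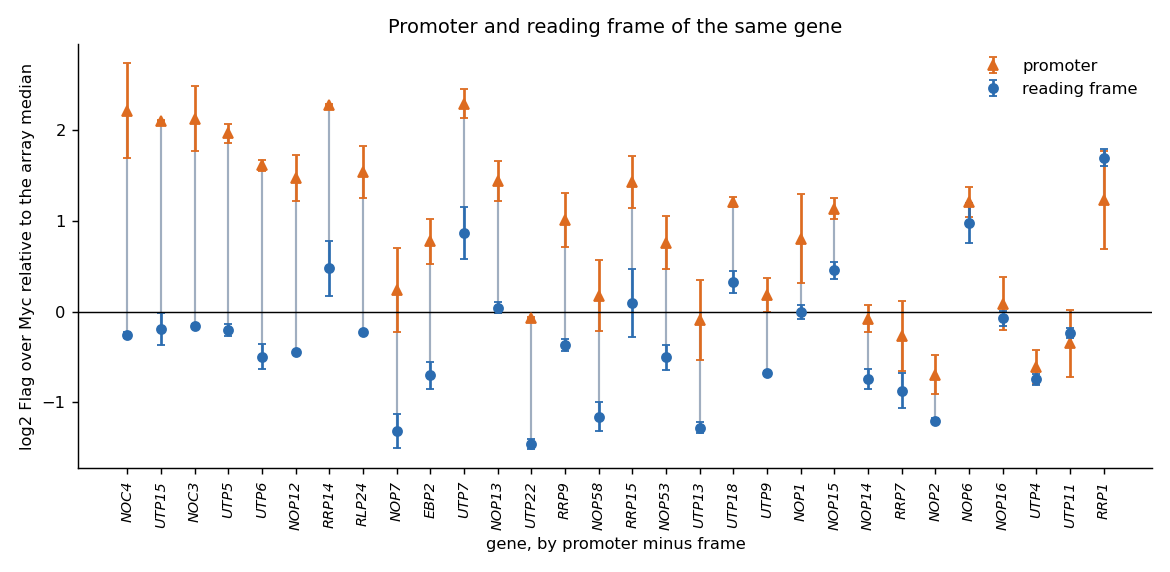
For the 30 genes with both values, triangles are promoters and circles reading frames, as means with SD of 2 arrays, in log2 ratio of Flag to Myc with the array median at 0 (vertical axis), ordered along the horizontal axis by promoter minus frame. The promoter stands above the frame by up to 2.48 in NOC4, and RRP1 at the right end has the order turned round, at -0.46. The promoter value of each of these 2 genes rests on 1 used probe.

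Other genes of the pathway were read from a second list of 101 ribosome assembly genes, with no member in common. Of 99 measured frames, 56 were lower, 25 were higher and 18 did not pass, with a median of -0.34 ± 0.04. Over all frames the median was -0.055 ± 0.02, with 42.8% lower and 39.1% higher. The lowest of the list were RIX1, of the complex that accompanies the large-subunit precursor (-1.47 and -1.49), the helicase gene HAS1 (-1.36 and -1.31) and ECM16, the helicase that removes U3 (-1.34 and -1.20). The highest were UTP30 (2.40 and 2.57), FCF1, a nuclease of the processome (2.38 and 2.56), and CGR1 (1.57 and 1.83). Each of these 6 had both arrays on the same side and passed the test (limma adjusted p from 1.2e-06 to 2e-05). FCF1 and CGR1 rest on 2 probes each and UTP30 on 3, in frames of 570, 363 and 825 bp. Of 76 measured promoters in this list, 62 were higher and 4 were lower, where 76.0% of all promoters were higher and 6.9% lower.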

How the data were processed

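The members, their role groups and the second list were chosen with earlier results of these data known. Per the file headers, the deposited intensity values come from Feature Extraction 8.5.1.1, which removed a spatial background, scaled each dye linearly and replaced very low signals by surrogates. The deposited log10 ratio, per the file headers, is red over green (Myc over Flag). The authors' value table is the log2 of that ratio without centring. Here log2 ratios of Flag to Myc were computed from the processed signals, and each array's median (-0.46 on both) was subtracted. Of 41282 nuclear probes (60 bp, spaced 267 bp), 3964 were left out as dim and 2419 for an outlier flag. A probe was left out as dim if any channel on any array was not well above background.

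Frame positions came from the distances listed in the files. Coordinates are the files' own, with the genome build not stated in them or in the labels. The lengths of frames were taken from RefSeq's gene table. Of 5943 matched frames, 44 whose listing contradicted the length were left out. A promoter probe has its midpoint in the 500 bp before a start codon and outside every frame. Tests used limma 3.58.1 in R 4.3.3 (lmFit on an intercept, eBayes, Benjamini-Hochberg over all regions), tested on simulated data. From 2 arrays, an exact sign-flip test has a smallest two-sided p of 0.5. The alternatives were normexp (offset 50), loess, scaling, the probe filters, medians over probes, other variance models and weights, the deposited table, other promoter windows, frames without shared probes, interior probes and leaving out each array. Values are given in full for the 5 highest and 5 lowest frames and promoters, the 3 largest and 3 smallest promoter-minus-frame differences, the ends of each role group, all higher frames and all lower promoters; of the second list, for the 3 highest and 3 lowest frames. A search of promoter sequences for motifs was planned and not run, and no sequence was used here.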

Additional observations from a re-analysis of the deposited data

How the results depend on the processing

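The counts of members called stayed within 1.5 times under the alternatives that gave a test, apart from those given next. With a 250 bp promoter window 1 of 24 promoters was lower. For promoter minus frame, normexp, loess, scaling, kept outlier flags and the 250 bp window each gave 1 lower gene, and promoter probes inside other frames gave 2 of 41. Interior probes (at least 250 bp inside both ends, chosen after seeing the data) left 13 frames of the second list higher. The members' frame median was -0.35 with normexp and -0.75 with interior probes, or -0.26 and -0.28 relative to all frames, and interior probes moved the median of all frames by -0.42. Keeping dim probes gave a member promoter median of 0.74 over 39 genes. It moved the median of all promoters by -0.13, and normexp moved it by -0.12. The cause of these shifts was not tested. With 1 array left out there is no test, and the members' frame median was -0.60 to -0.44, or -0.53 to -0.40 relative to all frames. The promoter median was 0.82 to 1.22, or -0.12 to 0.17 relative to all promoters. Single genes turned direction in 5 cases: UTP11 (0.023) and RLP24 (0.0046) frames under loess, UTP18 (-0.32) and NOP13 (-0.38) frames with interior probes, and the UTP11 promoter with dim probes kept (0.063). Over all alternatives a call was lost with its direction kept 14 times for frames, 4 times for promoters and 3 times for promoter minus frame. The deposited value table changed no call. No paired analysis was possible because there was 1 group, with no other group to pair it with.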
